A study of Chlamydomonas reinhardtii with 18 samples.

Results

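GFY1, GFY2, GFY3, GFY4 and GFY5 are the 5 genes of the unicellular green alga Chlamydomonas reinhardtii that carry a GFY symbol in the deposited expression table, and they encode putative acetate transporters. They were taken by symbol from the 17693 genes of that table, of which 4408 have a symbol. RNA-seq libraries came from cultures of tpt10b, 1 knockout line of CreTPT10, and of the wild type CC-4532 (WT), which is also the background of tpt10b. Both were grown to mid-log phase in Tris-acetate-phosphate medium under low light of about 30 μmol photons per square metre per second, sampled at that point (0 h), then moved to full darkness and sampled again at 24 h and 48 h.

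This gave 6 groups of 3 biological replicates, 18 libraries in all: tpt10b and WT in low light, tpt10b and WT after 24 h of darkness, and tpt10b and WT after 48 h of darkness. Every group was kept in acetate medium, and cultures without acetate, cultures left in the light for the same times and a complemented mutant line were not analysed here. Whether a difference at 24 h or 48 h goes with darkness or with the age of the culture cannot be told apart in this design. Nothing in the labels beyond the words biological replicate says that replicates were separate cultures, so p-values measure the spread between these libraries.

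GFY stands for GPR1/FUN34/YaaH, a family of small membrane proteins found in bacteria, fungi and algae, whose members in yeast and Escherichia coli take up acetate and related organic acids. Tagged GFY proteins of Chlamydomonas have been reported in microbodies, peroxisome-like compartments that hold part of the glyoxylate cycle. In the dark, acetate is the alga's carbon source: it is activated to acetyl-CoA and carried by the glyoxylate cycle towards malate and sugar. CreTPT10 belongs to the family of triose phosphate transporters, which exchange phosphorylated sugars for phosphate across plastid envelopes.

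Levels are transcripts per 1000000 transcripts (TPM), which divide the reads of a gene by its length and by the total of the library, so levels can be set against each other between genes. The library totals that the table implies ran from 59603478 to 87965038 reads. The lowest member level rested on 2328 reads of GFY1 and the highest on 238592 reads of GFY5, and all 5 genes passed the filter on low values, with TPM above 1 in 18 of 18 libraries. The locus taken here as CreTPT10, Cre08.g379350, at 0 h had a mean of 7.50 ± 0.839 TPM in tpt10b, against 58.3 ± 3.53 TPM in WT (SD, n = 3 each), and was also lower in tpt10b at 24 h and 48 h. Among the libraries, WT 48 h replicate 2 stood apart from the other WT 48 h libraries, with Pearson r of 0.970 and 0.975 over all genes against 0.993 between those 2. The tpt10b 24 h libraries had reads on 15490 to 16231 genes, against 16316 to 16901 genes in the other groups. Differences that involve WT at 48 h are therefore also given without it.

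The identifiers place the 5 genes on chromosome 17. In the gene order of the RefSeq annotation of assembly v5.5, an older build than that of the deposited table, GFY1, GFY2 and GFY3 lie close together, with 3 genes between GFY1 and GFY2 and 1 gene between GFY2 and GFY3. GFY4 and GFY5 are direct neighbours, and 45 genes separate them from GFY3. GFY3 and GFY5 have the same coding length of 672 bases, GFY4 has 669, GFY1 has 828 and GFY2 has 921. How reads matching more than 1 GFY gene were counted is not given in the sources used here, so the division of the family's reads between neighbouring copies is uncertain.

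GFY5 was the most abundant member in every library. Its level was 3823, 3692 and 3604 TPM in tpt10b at 0 h, against 3970.1, 3748 and 3825 TPM in WT at 0 h. After 24 h of darkness it stood at 1248, 865 and 1024 TPM in tpt10b, against 1413, 1964 and 1780.4 TPM in WT. Every dark library was thus below every light library, and the 3 tpt10b libraries at 24 h were below the 3 WT ones. After 48 h it was 719, 746 and 764 TPM in tpt10b and 662, 317 and 629 TPM in WT, where the lowest value is replicate 2. GFY5 ranked between place 43 and place 328 among all genes by TPM, and its group means ran in the order WT 0 h, tpt10b 0 h, WT 24 h, tpt10b 24 h, tpt10b 48 h and WT 48 h, with only the 0 h groups overlapping as neighbours.

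GFY3 and GFY4 were next in the light and varied most. GFY4 had 1061, 978 and 927 TPM in tpt10b at 0 h, against 1015, 956 and 1032 TPM in WT. After 24 h of darkness GFY4 had 131, 148 and 140.4 TPM in tpt10b, against 446, 693 and 557 TPM in WT, so that every tpt10b library held less than every WT library. After 48 h GFY4 had 228, 253 and 249 TPM in tpt10b and 214, 60.8 and 211 TPM in WT. GFY4 changed over a 17.4-fold range across the 18 libraries.

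GFY3 had the widest range, 26.4-fold. It stood at 1239.5, 1113 and 919 TPM in tpt10b at 0 h, against 1464, 1344 and 1451 TPM in WT. After 24 h of darkness it was down to 55.4, 63.5 and 60.1 TPM in tpt10b, against 267, 485 and 355 TPM in WT. The mean of GFY3 in tpt10b at 24 h was 5.47% of the tpt10b mean at 0 h, while in WT the 24 h mean was 26.0% of the 0 h mean. After 48 h it had 208, 232 and 227 TPM in tpt10b, against 241, 60.0 and 238 TPM in WT. There the groups overlapped, and WT replicate 2 lay far under its 2 partners.

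GFY2 was the least variable member, with a 3.07-fold range. It had 404, 383 and 363 TPM in tpt10b at 0 h, against 387, 393 and 435 TPM in WT. After 24 h of darkness it had 142, 167 and 161 TPM in tpt10b, against 221, 248 and 233 TPM in WT. After 48 h it had 256, 255 and 271 TPM in tpt10b, against 214, 158 and 209 TPM in WT. The genotypes overlapped in the light only; tpt10b was the lower one at 24 h and the higher one at 48 h.

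GFY1 was the least abundant member in the light, with 184, 163 and 163 TPM in tpt10b and 168, 152 and 180.3 TPM in WT. After 24 h of darkness it was at 35.3, 33.1 and 33.4 TPM in tpt10b, against 71.1, 111 and 88.3 TPM in WT. After 48 h it reached 216, 205 and 218 TPM in tpt10b, against 176, 81.8 and 151 TPM in WT. In TPM as deposited the tpt10b 48 h group was the highest of the 6 groups and the tpt10b 24 h group the lowest. Neither overlapped with any other group, and the 4 groups between them formed a run in which each overlapped with its neighbour. After median-of-ratios rescaling, which centres each library on its typical gene, tpt10b at 48 h (198 ± 5.58) overlapped with WT at 0 h (191 ± 22.3; SD, n = 3 each). GFY1 was the only member whose highest group mean was in darkness.

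**Figure D1:**
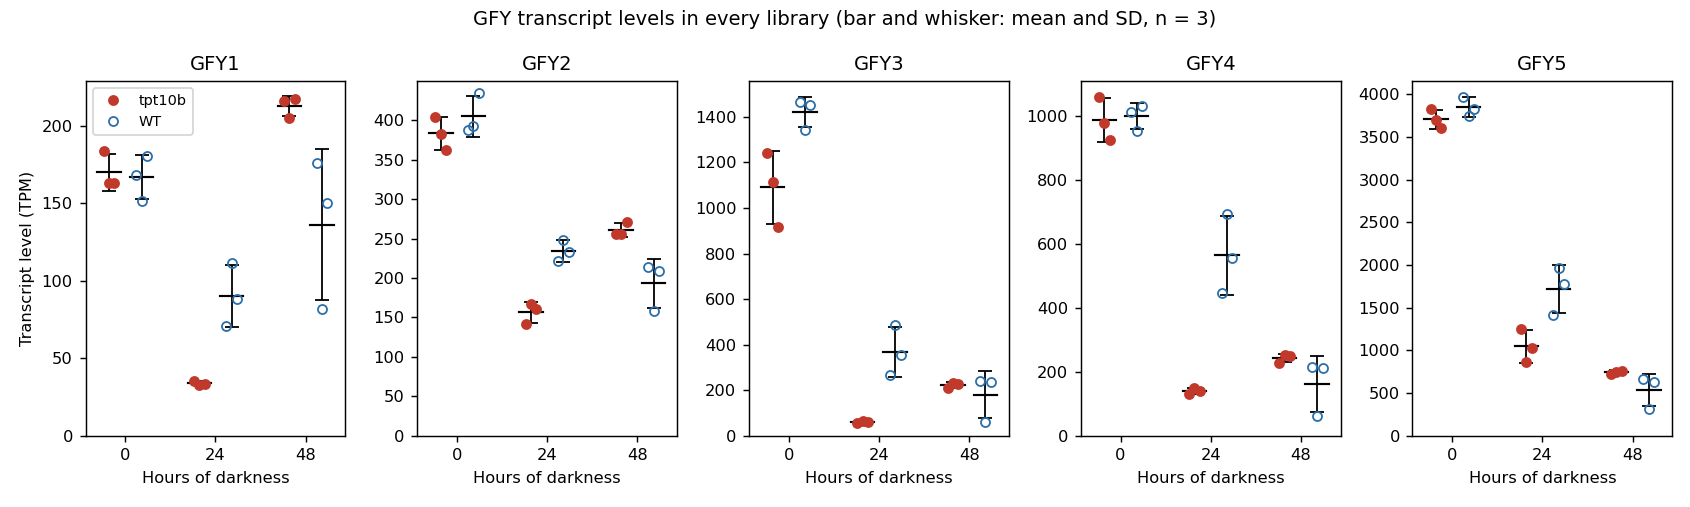
TPM of each GFY gene in each of the 18 libraries, by hours of darkness, with tpt10b (filled) left of WT (open); points are libraries, and bars with whiskers are group means ± SD (n = 3 each). At 24 h the tpt10b points lie below the WT points for all 5 genes, and at 48 h WT replicate 2 is the lowest WT point for each gene.

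The first question was whether loss of CreTPT10 changed GFY transcripts before the shift to darkness. In tpt10b at 0 h no GFY gene passed the test against WT in TPM as deposited, while 4 passed as lower after rescaling. By limma on log2(TPM + 1) with a Benjamini-Hochberg adjusted p under 0.05, 0 of 5 were called, also at an unadjusted p under 0.05 and by limma-voom on the recovered reads. The log2 differences were 0.03 (95% interval -0.40 to 0.46) for GFY1, -0.08 (-0.31 to 0.16) for GFY2, -0.39 (-1.14 to 0.36) for GFY3, -0.02 (-0.68 to 0.64) for GFY4 and -0.05 (-0.49 to 0.38) for GFY5. Over all genes, 50.8% were called higher and 9.19% lower in tpt10b, and the median gene was 0.41 higher on the log2 scale. Set against that median, the 5 members were lower, by -0.38 for GFY1 to -0.80 for GFY3. After median-of-ratios rescaling, which centres each library on its typical gene, 4 of 5 were called lower in tpt10b (GFY1 -0.53, GFY2 -0.64, GFY3 -0.95 and GFY5 -0.61), where 21.2% of all genes were called lower and 13.1% higher. GFY4 was at -0.58 with an adjusted p of 0.0999. In TPM as deposited GFY3 was called lower by limma without WT 48 h replicate 2 (adjusted p = 0.0357). That library is outside this comparison but enters the shared estimate of the spread. TPM are shares of a library, so these 2 readings cannot be told apart without a measure of RNA per cell.

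After 24 h of darkness all 5 GFY genes were lower in tpt10b than in WT, GFY3 and GFY4 the most. The mean of GFY3 in tpt10b was 16.2% of that in WT, GFY4 24.8%, GFY1 37.6%, GFY5 60.8% and GFY2 67.0%. On the log2 scale GFY3 differed by -2.57 ± 0.36 (SE; adjusted p = 7.87e-05 by limma) and GFY4 by -1.99 ± 0.31 (adjusted p = 1.95e-04). The smaller differences were -1.36 ± 0.20 for GFY1 (adjusted p = 1.35e-04), -0.58 ± 0.11 for GFY2 (8.65e-04) and -0.72 ± 0.21 for GFY5 (0.0109). For each of the 5, every tpt10b library was below every WT library; this was so for 41% of all genes, and 34.8% of all genes were called lower and 5.76% higher. In RNA from whole cultures, less transcript per cell and fewer cells carrying it cannot be told apart.

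The median of all genes was itself 0.23 lower in tpt10b at 24 h. After rescaling, GFY3 (-2.21), GFY4 (-1.62) and GFY1 (-1.0) were still called lower, where 20.5% of all genes were called lower and 20.6% higher. GFY2 was then at -0.21 (adjusted p = 0.122) and GFY5 at -0.35 (adjusted p = 0.0908). GFY5 also missed the threshold without WT 24 h replicate 2 (adjusted p = 0.0548).

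After 48 h of darkness the means of all 5 genes were higher in tpt10b, and every tpt10b library was above every WT library for each but GFY3, as it was for 26.1% of all genes. GFY2 was 0.44 ± 0.11 higher (adjusted p = 0.0280) and GFY1 0.71 ± 0.20 higher (adjusted p = 0.0472), against 5.2% of all genes called higher and 1.39% lower. GFY4 at 0.79, GFY3 at 0.55 and GFY5 at 0.54 did not pass, with adjusted p of 0.125, 0.329 and 0.109. The call of GFY1 was lost on leaving out any library of 0 h, any of tpt10b at 48 h, replicate 3 of either genotype at 24 h or WT 48 h replicate 2, and that of GFY2 on leaving out any of tpt10b at 48 h or WT 48 h replicate 2. Leaving out WT 48 h replicate 1 gave 4 calls, those 2 with GFY4 and GFY5. Without WT 48 h replicate 2 none of the 5 was called, and the differences were 0.39 for GFY1, 0.30 for GFY2, -0.11 for GFY3, 0.19 for GFY4 and 0.20 for GFY5. After rescaling GFY1 was at 0.55 (adjusted p = 0.0506), GFY2 at 0.28 (adjusted p = 0.121), and none passed, against 3.05% of all genes called higher and 2.46% lower.

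**Figure D2:**
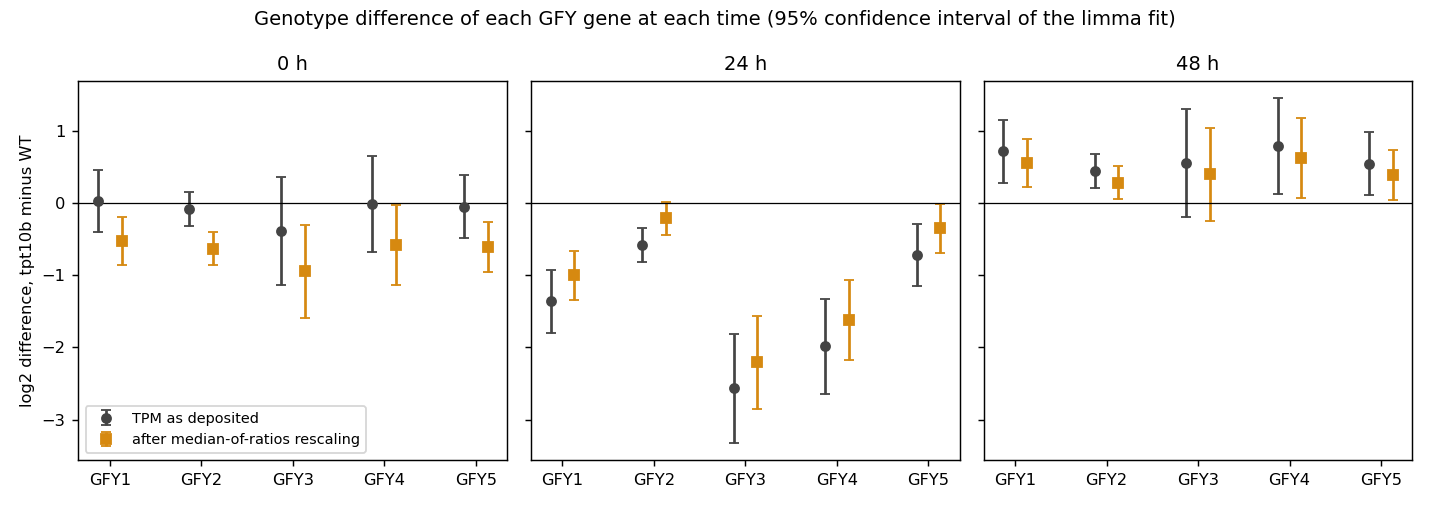
The log2 difference (tpt10b minus WT) of each GFY gene at 0 h, 24 h and 48 h, with the 95% confidence interval of the limma fit; circles use TPM as deposited and squares TPM after median-of-ratios rescaling. GFY3 and GFY4 at 24 h are the lowest points under either scaling, and at 0 h rescaling moves all 5 genes down.

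The second question was how the genes changed with time in darkness in each genotype. In tpt10b all 5 fell within 24 h, by a log2 difference of -4.16 ± 0.36 for GFY3, -2.81 ± 0.31 for GFY4, -2.29 ± 0.20 for GFY1, -1.84 ± 0.21 for GFY5 and -1.29 ± 0.11 for GFY2 (limma, adjusted p between 1.69e-08 and 4.17e-07). No 24 h library of tpt10b overlapped with a 0 h one for any of the 5. The share of all genes without such overlap is not given here for this comparison, so the lack of overlap is a description only. At this time 57.1% of all genes were called lower and 18.1% higher in tpt10b, and the median gene was 0.53 lower. After rescaling, with 38.1% of all genes lower and 34.2% higher, all 5 members were still called lower, at -3.53 for GFY3 and -0.65 for GFY2, the ends of the range.

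In WT the 5 genes also fell within 24 h. GFY3 fell by 1.98 on the log2 scale (adjusted p = 9.99e-05 by limma), GFY5 by 1.17 (7.72e-05), GFY1 by 0.90 (9.05e-04), GFY4 by 0.84 (0.0250) and GFY2 by 0.79 (7.92e-06). The 5 calls stand against 25.8% of all genes called lower and 40.6% higher. The call of GFY4 was lost without replicate 1 or 3 of WT at 0 h and without replicate 1 or 3 of WT at 24 h, with adjusted p of up to 0.0991.

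Between 24 h and 48 h the genotypes went opposite ways for GFY3 and GFY4, which rose in tpt10b and fell in WT. In tpt10b GFY1 rose 6.28-fold in its mean, by 2.62 ± 0.20 on the log2 scale (adjusted p = 1.85e-08 by limma), and GFY3 rose 3.73-fold, by 1.88 ± 0.36 (adjusted p = 1.90e-04). GFY2 rose by 0.73 ± 0.11 (adjusted p = 2.20e-05) and GFY4 by 0.79 ± 0.31 (adjusted p = 0.0340), while GFY5 fell by 0.48 (adjusted p = 0.0497). For the 4 that rose, every 48 h library was above every 24 h library, as it was for 49.9% of all genes; 46.5% of all genes were called higher and 20.2% lower. The call of GFY4 was lost on leaving out any 1 of the 6 tpt10b libraries of 24 h or 48 h, and after rescaling (0.43, adjusted p = 0.159). That of GFY5 was lost on leaving out any 1 of 13 libraries, which were all those at 0 h, all of tpt10b at 48 h, replicates 1 and 3 of tpt10b at 24 h and replicates 2 and 3 of WT at 24 h, and after rescaling GFY5 was at -0.85 (adjusted p = 2.31e-04), where 35.3% of all genes were called higher and 32.6% lower.

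In WT over the same day GFY4 fell by 1.98 (adjusted p = 1.05e-04 by limma), GFY5 by 1.74 (5.76e-06) and GFY3 by 1.24 (0.0103), where 24.7% of all genes were called lower and 16.8% higher. GFY2 was at -0.28 with an adjusted p of 0.0502, and passed without replicate 1 or 2 of tpt10b at 24 h or replicate 1 or 3 of WT at 48 h. GFY1 was 0.54 higher (adjusted p = 0.0431), with overlapping groups and a call that was lost on leaving out any 1 of 12 libraries. These were all of tpt10b at 0 h and 48 h and replicates 1 and 3 of WT at each of the 3 times. Without WT 48 h replicate 2 the differences were -1.38 for GFY4, -1.40 for GFY5, -0.58 for GFY3, -0.14 for GFY2 and 0.87 for GFY1, and the calls of GFY1, GFY3, GFY4 and GFY5 held. The call of GFY3 was lost without WT 24 h replicate 2 (adjusted p = 0.0527).

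Against 0 h, 48 h of darkness left 4 genes lower in each genotype, in comparisons that share the 0 h libraries with those at 24 h. In tpt10b GFY5 was at -2.32, GFY3 at -2.28, GFY4 at -2.02 and GFY2 at -0.55 (limma, adjusted p between 1.81e-08 and 2.55e-04), with 44.1% of all genes called lower and 30.1% higher. In WT GFY3 was at -3.22, GFY5 at -2.91, GFY4 at -2.82 and GFY2 at -1.07 (adjusted p between 1.04e-09 and 3.35e-07), with 32.4% called lower and 37.7% higher. Without WT 48 h replicate 2 the WT differences were -2.56 for GFY3, -2.57 for GFY5, -2.23 for GFY4 and -0.93 for GFY2, and the 4 calls held. GFY1 was the exception: in tpt10b its 48 h mean was 125% of the 0 h mean, a difference of 0.32 (adjusted p = 0.161 by limma). In WT GFY1 was at -0.36 (adjusted p = 0.126), at -0.03 without WT 48 h replicate 2, and called lower without WT 48 h replicate 1 (adjusted p = 0.0166). The GFY1 difference in tpt10b passed without WT 48 h replicate 2 (adjusted p = 0.0281). After rescaling GFY1 was called higher in tpt10b (0.59, adjusted p = 0.00309) and lower in WT (-0.49, adjusted p = 0.0103). Rescaled, 37% of all genes were called higher and 36.9% lower in tpt10b, and 35% higher and 37.2% lower in WT.

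**Figure D3:**
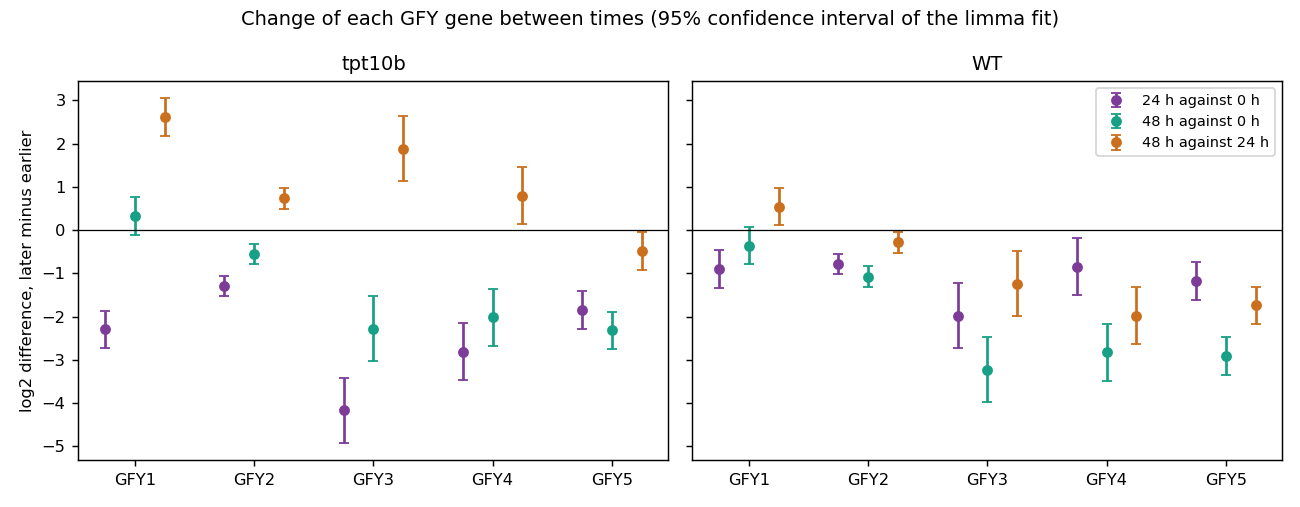
The log2 difference between times (later minus earlier) for each GFY gene in tpt10b (left) and WT (right), with the 95% confidence interval of the limma fit. From 24 h to 48 h GFY2, GFY3 and GFY4 lie above 0 in tpt10b and below 0 in WT, where GFY2 did not pass the test. GFY1 lies above 0 and GFY5 below 0 in both genotypes.

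Whether the genotypes differed in these changes was tested directly as an interaction. From 0 h to 24 h the fall in TPM as deposited was deeper in tpt10b for 4 genes, of which GFY2 turned round after rescaling, with interactions of -2.18 ± 0.50 for GFY3 (adjusted p = 0.00144 by limma), -1.97 ± 0.44 for GFY4 (0.00121), -1.39 ± 0.29 for GFY1 (6.60e-04) and -0.50 ± 0.16 for GFY2 (0.0113). GFY5 was at -0.67 ± 0.29 (adjusted p = 0.0543), and passed on leaving out replicate 1 of either genotype at 24 h or any WT library of 48 h. Of all genes 57.9% were called in this direction and 6.25% in the other, and the median gene was at -0.65. After rescaling, where 19.2% were called lower and 25.4% higher, GFY3 (-1.26, adjusted p = 0.0256) and GFY4 (-1.04, adjusted p = 0.0308) were still called lower. GFY1 was then at -0.48 (adjusted p = 0.0928), GFY5 at 0.26 (0.374), and GFY2 turned to 0.42 (0.0326).

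From 24 h to 48 h the interaction was positive and passed the test for all 5 genes, a contrast added after the values were seen. It was 3.12 ± 0.50 for GFY3 (adjusted p = 2.66e-04 by limma), 2.77 ± 0.44 for GFY4 (2.53e-04), 2.08 ± 0.29 for GFY1 (1.50e-04), 1.26 ± 0.29 for GFY5 (0.00274) and 1.02 ± 0.16 for GFY2 (2.26e-04). Of all genes 36.9% were called in this direction and 6.14% in the other, and the median gene was at 0.36. After rescaling all 5 were still called, at 2.60 for GFY3, 2.25 for GFY4, 1.56 for GFY1, 0.74 for GFY5 and 0.49 for GFY2, where 21% of all genes were called higher and 20.6% lower. Without WT 48 h replicate 2 the 5 calls also held, with 2.46 for GFY3, 2.17 for GFY4, 1.75 for GFY1, 0.92 for GFY5 and 0.88 for GFY2.

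Over the whole 48 h only GFY2 passed the interaction test, at 0.52 ± 0.16 (adjusted p = 0.0180 by limma), and this call was lost without WT 0 h replicate 3 (adjusted p = 0.0525). Without WT 48 h replicate 1 GFY1 and GFY5 passed as well. Without WT 48 h replicate 2 GFY2 was at 0.38 (adjusted p = 0.0250) and was the only one called. Of all genes 9.02% were called higher and 26.4% lower, with the median gene at -0.26. After rescaling all 5 were called, between 0.92 for GFY2 and 1.34 for GFY3, where 16.9% of all genes were called higher and 8.75% lower.

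The 5 genes were also summed in each library. At 0 h it was 6339 ± 369 TPM in tpt10b, against 6840.2 ± 219 TPM in WT (SD, n = 3 each). At 24 h it was 1436 ± 168 TPM in tpt10b, against 2978 ± 542 TPM in WT, and at 48 h 1682 ± 51.2 TPM in tpt10b, against 1208 ± 460 TPM in WT. Without replicate 2 the WT mean at 48 h was 1472 TPM. In TPM as deposited the sum in tpt10b was lowest at 24 h. After rescaling its means were 1724 ± 193 at 24 h and 1564 ± 32.5 at 48 h, and the libraries of these times overlapped. In WT it was lowest at 48 h with either scaling. The share of each gene in the sum does not depend on how libraries are scaled. At 0 h GFY5 made up 58.5% ± 1.69 of the sum in tpt10b, against 56.3% ± 0.881 in WT, and at 48 h 44.2% ± 0.0471 in tpt10b, against 44.8% ± 1.73 in WT (43.8% without replicate 2). At 24 h its share was 72.4% ± 4.86 in tpt10b, against 57.9% ± 1.58 in WT, with no overlap. The groups did not overlap at 0 h either, where the lowest tpt10b share was 56.96% and the highest WT share 56.86%.

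The share of GFY3 was also apart between the genotypes, without overlap at 0 h and at 24 h. At 24 h it was 4.21% ± 0.766 in tpt10b, against 12.2% ± 1.46 in WT (SD, n = 3 each). At 0 h it had been 17.1% in tpt10b, against 20.7% in WT. GFY1 had the smallest share in the light, 2.68% in tpt10b and 2.44% in WT, while at 48 h it had 12.7% ± 0.574 in tpt10b, against 11.4% ± 0.838 in WT (11.1% without replicate 2). Ratios of 2 genes within a library are likewise free of the scaling. The log2 ratio of GFY4 to GFY3 was already apart at 0 h, without overlap. It was then -0.13 ± 0.127 in tpt10b, against -0.50 ± 0.0212 in WT. At 24 h it was 1.23 ± 0.0108 in tpt10b, against 0.64 ± 0.114 in WT. At 48 h it was 0.13 ± 0.00396 in tpt10b, against -0.11 ± 0.109 in WT (-0.17 without replicate 2). The log2 ratio of GFY1 to GFY3 at 0 h was -2.67 in tpt10b, against -3.09 in WT. At 48 h it was -0.06 ± 0.115 in tpt10b, against -0.22 ± 0.589 in WT. The WT libraries at 48 h had -0.45, 0.45 and -0.66, and without replicate 2, the only one above 0, their mean was -0.55.

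**Figure D4:**
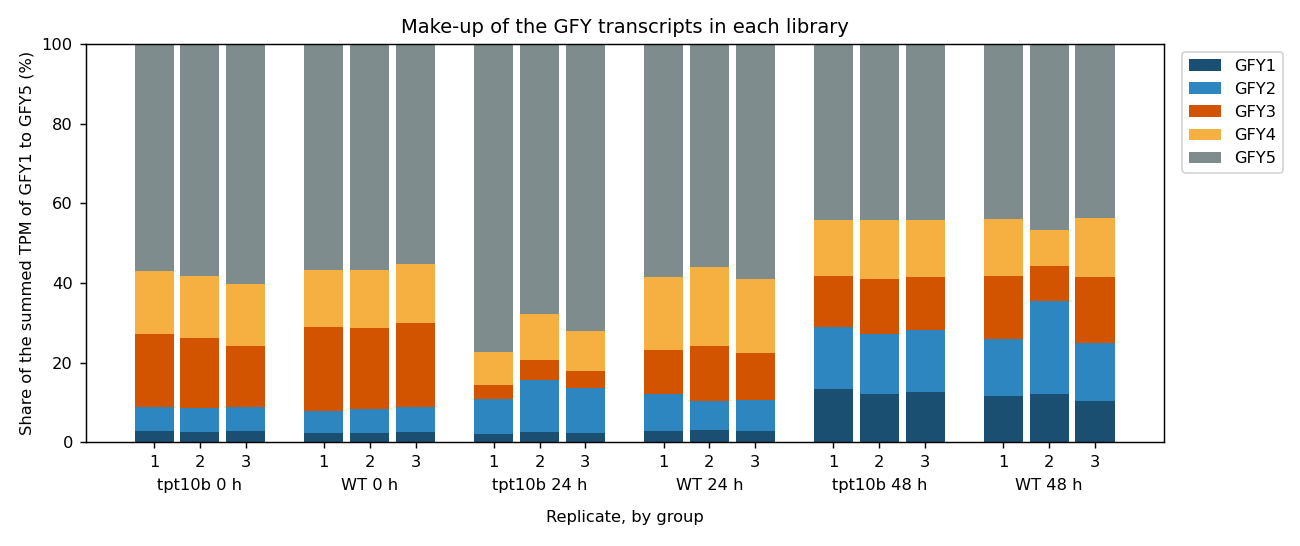
Share of each GFY gene in the summed TPM of the 5 genes (%), 1 bar for each library, ordered by time with tpt10b left of WT. GFY5 takes its largest share in the tpt10b 24 h libraries and GFY1 its largest in the 48 h libraries of either genotype.

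The members did not all vary together. Over the 18 libraries the log2 levels of GFY2 and GFY3 had a Pearson r of 0.967, GFY3 and GFY4 of 0.955, and the neighbours GFY4 and GFY5 of 0.927. GFY1 and GFY5 had an r of 0.237, and of -0.28 over the 12 dark libraries. These are descriptions across libraries of 6 groups, which share the light-to-dark step and the library scaling.

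The genes most like each member were sought among 3102 other genes with a symbol and a mean TPM of at least 5, by Pearson r over the 18 libraries. The level of GFY1 was most like MDH5, a malate dehydrogenase (r = 0.981), TEF4 (0.974) and the pherophorin PHC52 (0.973). That of GFY3 was most like ACS3, an acetyl-CoA synthetase (0.989), UCP2C (0.985) and COP21 (0.982), and that of GFY4 was most like UCP2C (0.978), ACS3 (0.978) and ASA6, a subunit of the mitochondrial ATP synthase (0.975). GFY5 had TAL1, a transaldolase (0.985), CPLD7 (0.985) and MAS1, malate synthase (0.985), nearest to it. GFY2 had HBD1 (0.979), the dynein regulatory complex gene DRC8 (0.975) and COP21 (0.971), of which HBD1 and COP21 left the nearest 100 after rescaling. For the mean of the 5 members the nearest were UCP2C (0.990), HBD1 (0.988) and ACS3 (0.984).

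Genes for the use of acetate were taken as a list of 18, from acetate activation through the glyoxylate cycle to phosphoenolpyruvate carboxykinase. At 24 h 7 of the 18 were lower in tpt10b and 2 higher, against 34.8% lower and 5.76% higher over all genes; the median of the list was -0.15 and that of all genes -0.23. After rescaling 3 were lower and 6 higher, against 20.5% lower and 20.6% higher over all genes. The 2 largest differences were in ACS3, at -3.11 (25.1 ± 7.15 TPM in tpt10b, 225 ± 70.7 TPM in WT), and MDH5, at -2.69 (4.95 ± 2.03 TPM in tpt10b, 36.7 ± 10.9 TPM in WT; SD, n = 3 each). The phosphotransacetylase PAT1 (-0.98), MDH1 (-0.73), MAS1 (-0.72), ACS1 (-0.55) and isocitrate lyase ICL1 (-0.35) were lower by less, and the citrate synthase CIS1 (0.51) and MDH2 (0.41) were higher.

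From 24 h to 48 h in tpt10b 6 of the 18 genes rose and 7 fell, against 46.5% higher and 20.2% lower over all genes; after rescaling 5 rose and 12 fell, against 35.3% and 32.6%. MDH5 rose by 4.38 and ACS3 by 1.88, whereas the abundant enzymes ICL1 (-0.02) and MAS1 (-0.04) did not pass the test. The interaction over this day was called positive for 9 of the 18, ACS3 (3.91) and MDH5 (3.67) with the largest values, and negative for 1, CIS1 (-0.72); after rescaling 6 were positive and 4 negative. Over all genes the shares were 36.9% positive and 6.14% negative, and 21% and 20.6% after rescaling.

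In the light 10 of the 18 were higher in tpt10b and 0 lower, near the 50.8% higher and 9.19% lower over all genes. After rescaling 2 were higher and 2 lower, against 13.1% and 21.2%. From 0 h to 24 h in tpt10b 14 fell and 3 rose, against 57.1% and 18.1% of all genes, and after rescaling 8 fell and 5 rose, against 38.1% and 34.2%. In WT 9 fell and 3 rose, against 25.8% and 40.6% of all genes, and after rescaling 12 fell and 3 rose, against 34.5% and 31.5%. At 48 h 2 were higher in tpt10b and 0 lower, against 5.2% and 1.39% of all genes.

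**Figure D5:**
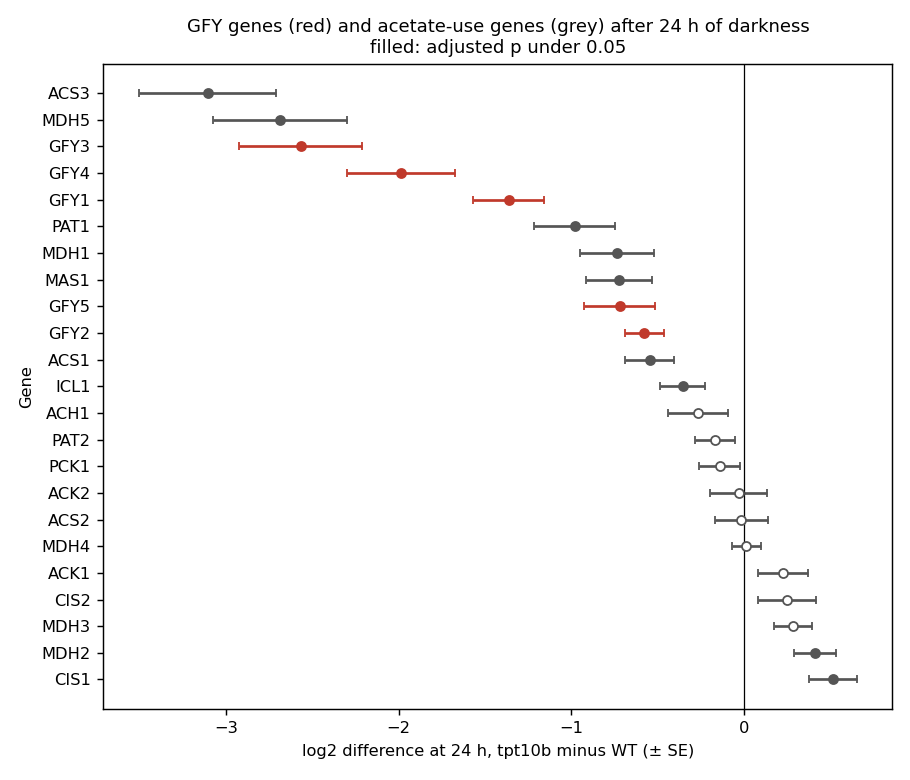
The log2 difference at 24 h (tpt10b minus WT, ± SE of the limma fit) of the 5 GFY genes (red) and the 18 acetate-use genes (grey), ordered by size; filled points passed the adjusted p threshold of 0.05. GFY3, GFY4 and GFY1 stand next to ACS3 and MDH5 at the low end, and GFY5 and GFY2 lie among MAS1, MDH1 and ACS1.

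Of 7 peroxisome biogenesis (PEX) genes, 4 were lower in tpt10b at 24 h and 0 higher, against 34.8% of all genes lower. PEX7 (-1.02) and PEX5 (-0.80), import receptors for peroxisomal proteins in other organisms, were among those lower. After rescaling 3 were lower and 2 higher, against 20.5% and 20.6% of all genes. In the interaction from 24 h to 48 h 5 of the 7 were called positive and 0 negative, against 36.9% and 6.14% of all genes. After rescaling 3 were positive and 2 negative, against 21% and 20.6%.

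Genes beside the GFY loci were looked at after their values were seen. In all 10 such genes had values and 9 were tested, and their mean levels were between 0.934 and 6.18 TPM, far under those of the members. In WT from 0 h to 24 h 5 of the 9 rose and 0 fell, against 40.6% and 25.8% of all genes. At 24 h 3 of the 9 were lower in tpt10b, and 1 of the 9 after rescaling, against 34.8% and 20.5% of all genes. In the interaction from 0 h to 24 h 6 of the 9 were negative and 0 positive, against 57.9% and 6.25% of all genes. After rescaling 4 were negative and 0 positive, against 19.2% and 25.4%. For the interaction from 24 h to 48 h 6 were positive and 0 negative, against 36.9% and 6.14%. Rescaled, 0 were positive and 1 negative, against 21% and 20.6%.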

How the data were processed

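Chlamydomonas RNA-seq was analysed from the deposited TPM (transcripts per 1000000 transcripts) of 17693 genes in 18 libraries (6 groups of 3). The authors worked with HISAT2 2.0.5 and StringTie 1.3.3b, per the submitters' processing notes; the counter, the strand setting, any poly(A) selection and the treatment of reads with several matches are not given in the sources used here. TPM times gene length gave whole reads (within 0.01) for 100% of values; these recovered reads, 59603478 to 87965038 per library, gave the depth and an alternative limma-voom fit. Gene lengths were multiples of 3 in 94.4% of genes and are called coding lengths.

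Genes with TPM of at least 1 in at least 3 libraries (14731) were fitted with limma 3.58.1 (R 4.3.3) on log2(TPM + 1), a pseudocount that understates changes of low genes, with 1 mean per group, a variance trend and two-sided tests. P-values were adjusted by Benjamini-Hochberg over all genes within each of 12 contrasts, 1 of them added after the data were seen, at a threshold of 0.05. The fit was tested on simulated data, in the contrast of tpt10b against WT at 24 h. It recovered 33.8% of 1.5-fold, 72.7% of 2-fold and 98.4% of 4-fold changes. In this simulated table of 14148 genes 8 calls were false. All simulated libraries shared 1 mean profile, in which only 200 genes were changed in tpt10b at 24 h. The median gene of the real contrast was at -0.23, so the simulation cannot show how library scaling affects the calls. Alternatives were median-of-ratios rescaling, quantile normalisation, other pseudocounts (0.1 and 5) and filters (none, or a mean TPM of 5), robust shrinkage, compared groups only, limma-voom, a replicate block, and each library left out. The members and gene lists were chosen with earlier results of these data known.

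Named genes were the 5 members, the acetate-use list (18 of 19 symbols matched), the 3 peroxisome genes (7 of 16 matched) with the smallest adjusted p (1 of them is not reported here), the targeted locus and the 3 genes most like each member by Pearson r. Cre08.g379350 has no symbol in the table; its assignment to CreTPT10 is background knowledge. Descriptions number the tpt10b 48 h replicates 4 to 6 where titles give 1 to 3; titles were used.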

Additional observations from a re-analysis of the deposited data

Results flagged for a closer look

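The genotypes differed in how GFY1, GFY2, GFY3 and GFY4 changed over the first 24 h of darkness, by an interaction test in limma. The interactions (change in tpt10b minus change in WT, log2 scale) were -1.39 for GFY1, -0.50 for GFY2, -2.18 for GFY3 and -1.97 for GFY4, with adjusted p between 6.60e-04 and 0.0113. Of all genes 57.9% were called negative and 6.25% positive, and the median gene was at -0.65, below GFY2. After rescaling GFY3 and GFY4 kept their calls, GFY1 missed the threshold (adjusted p = 0.0928) and GFY2 turned to 0.42.

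Over the second day of darkness the interactions were positive, at 2.08 for GFY1, 1.02 for GFY2, 3.12 for GFY3, 2.77 for GFY4 and 1.26 for GFY5, with adjusted p between 1.50e-04 and 0.00274. The median gene was at 0.36 in the same contrast, with 36.9% of all genes called positive and 6.14% negative. The tpt10b 24 h libraries, which enter this contrast and the one above, had reads on fewer genes (15490 to 16231) than the other groups (16316 to 16901), and the part of this in the results was not tested.

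Over the whole 48 h the interaction of GFY2 was 0.52 (adjusted p = 0.0180 by limma), a call lost without WT 0 h replicate 3 (adjusted p = 0.0525). In this contrast 9.02% of all genes were called higher and 26.4% lower, with the median gene at -0.26. After rescaling all 5 members were called, so GFY2 did not stand alone.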

How the results depend on the processing

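The counts of GFY genes called moved in several comparisons. At 48 h between genotypes the 2 calls became 1 with a pseudocount of 0.1, without the low-value filter or with the replicate block, and 0 after rescaling, quantile normalisation, limma-voom, the fit on compared groups only, or rescaling without WT 48 h replicate 2, which was chosen after seeing the data; leaving out 1 library gave 0 to 4. At 0 h the count of 0 became 4 after rescaling, 5 after rescaling without WT 48 h replicate 2, and 1 in the fit on compared groups only (0 to 1 with 1 library left out), and at 24 h the count of 5 became 3 after rescaling. For WT from 24 h to 48 h the fit on compared groups only called 2 in place of 4. For tpt10b over that day 3 in place of 5 were called without the filter and after quantile normalisation (3 to 5 with 1 library left out). The interaction over 48 h called 5 after rescaling, with or without WT 48 h replicate 2, and 2 by limma-voom, in place of 1 (0 to 3 with 1 library left out). The 5 calls in the interaction over the second day held under every alternative run, with adjusted p of up to 0.0339.

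Directions turned for GFY1 at 0 h (-0.53 after rescaling, -0.064 after quantile normalisation, -0.10 by limma-voom; -0.036 to 0.087 with 1 library left out), GFY5 at 0 h (0.060 after quantile normalisation), GFY4 at 0 h (-0.071 to 0.026 with 1 library left out) and GFY3 at 48 h between genotypes (-0.14 after rescaling without WT 48 h replicate 2; -0.11 to 0.89 with 1 library left out). Rescaling turned the 24 h interactions of GFY2 (0.42) and GFY5 (0.26). It moved the acetate-use list at 0 h to 4 calls in place of 10, and the peroxisome list in the 48 h interaction to 2 in place of 0. Causes were not tested. Same-numbered replicates did not deviate together (6 of 45 pairs had a correlation above 0.1), so the numbers were not read as pairs; the replicate block kept 57 of 60 member results on their side of the threshold. The lowest member value rests on 2328 reads. Each group had 3 libraries, and those of WT at 48 h were widely spread. Median-of-ratios rescaling kept 42 of 60 member results in the same direction and on their side of the threshold. Which of these limits the results most was not tested.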
